A study of Mus musculus with 17 samples.

Results

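The response of wild-type kidney cortex to ischemia-reperfusion injury (IRI) was measured in 8 of the 17 kidneys of the series, 4 WT IRI and 4 WT sham, chosen by their labelled genotype and injury state, and is described here across all genes of the deposited table. The WT mice were C57Bl6/J males, 12 to 14 weeks old, that carried a floxed Ccn2 gene and the ROSA26CreERT2 transgene, a Cre recombinase driven in all tissues and active only with tamoxifen. These mice had received 4 intraperitoneal injections of corn oil over 7 days and a washout of 14 days, so WT here means mice with the floxed gene and without tamoxifen. In WT IRI mice both renal pedicles were clamped for 25 min and the kidneys were taken after 4 h of reperfusion, and WT sham mice went through the same surgery without clamping. The other 9 kidneys, 5 CCN2 KO IRI and 4 CCN2 KO sham, came from the same line given tamoxifen, and they enter only the shared estimate of the spread and the comparison of responses. Each kidney was 1 poly(A) RNA library, and a kidney is the unit of replication. The labels do not say that each sample of a group came from its own mouse, so the p-values measure the spread between these samples, which may be technical.

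When blood flow to the kidney stops, tubular cells run out of ATP, and the return of oxygen adds a burst of reactive oxygen species. The first hours after reflow are known for a fast transcriptional program, in which immediate early transcription factors, stress kinases, the eIF2α kinases and NF-κB induce genes for repair, amino acid supply, antioxidant defence and cytokine signalling, ahead of the regeneration of the tubule. The proximal tubule is the most exposed segment in the cortex because it depends on mitochondrial oxidation and has little capacity for glycolysis.

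Values are deposited log2 RPKM (reads per kilobase of exon, scaled to the library total) after quantile normalization, with a floor of −3.32 that stands for an RPKM of 0.1 or less; a difference of 1 on this scale is a 2-fold change. Depth per library is unknown, because the table holds no counts and the normalization gives every kidney the same set of values. Across genes the WT IRI kidneys correlated with each other at 0.943 to 0.957, the WT sham kidneys at 0.915 to 0.953, and WT IRI with WT sham kidneys at 0.856 to 0.905. All 20 of the listed proximal tubule markers of segments S1 and S2 and all 12 podocyte markers passed the filter on low values, while 1 of 12 markers of adrenal cortex and perirenal fat did. That filter needs 4 kidneys, and fat transcripts were high in 1 kidney, WT sham kidney 4. There Cfd, the adipocyte protease adipsin, measured 5.66, the adipokine Adipoq 2.89, and the lipid droplet proteins Cidec and Plin1 2.74 and 1.01, whereas in the other 7 WT kidneys their highest value was −0.57. The summed RPKM of the 12 markers was 12.4 to 38 in WT IRI and 16.1 to 185 in WT sham kidneys. Without WT sham kidney 4, 4703 genes passed the test described next, against 5016 with it. The first principal component of the 8 WT kidneys held 45.6% of the variance and placed WT IRI kidneys between 40.7 and 52.0 and WT sham kidneys between −55.0 and −38.6. Their difference in mean, 90.5, had the smallest p that an exact two-sided permutation test of 4 against 4 can give (p = 0.0286). The second component, with 14.9% of the variance, was spread mainly among the sham kidneys, from −34.0 to 59.2, and the WT IRI kidneys lay between −5.31 and 9.78 on it.

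Of 12608 genes tested with limma, 2458 (19.5%) were higher and 2558 (20.3%) were lower in WT IRI than in WT sham kidneys at an adjusted p under 0.05. The median difference was 0.73 among the higher genes, a 1.66-fold change, and −0.68 among the lower genes, and over all genes tested it was −0.05. The biggest changes were mostly increases. Among genes past the test, 213 rose and 77 fell by more than 4-fold, 99 rose and 17 fell by more than 8-fold, and 42 rose and 2 fell by more than 16-fold. A stricter test, that the change exceeds 2-fold, called 193 genes higher (1.53%) and 34 lower (0.27%). Every WT IRI kidney lay above every WT sham kidney for 2372 genes (18.8%) and below for 2386 (18.9%), and all 227 genes past the 2-fold test were among these. With only the WT sham kidneys whose titles share the prefix of the WT IRI kidneys (2 of 4), 117 genes passed the 2-fold test; what the prefix stands for is not labelled.

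**Figure D1:**
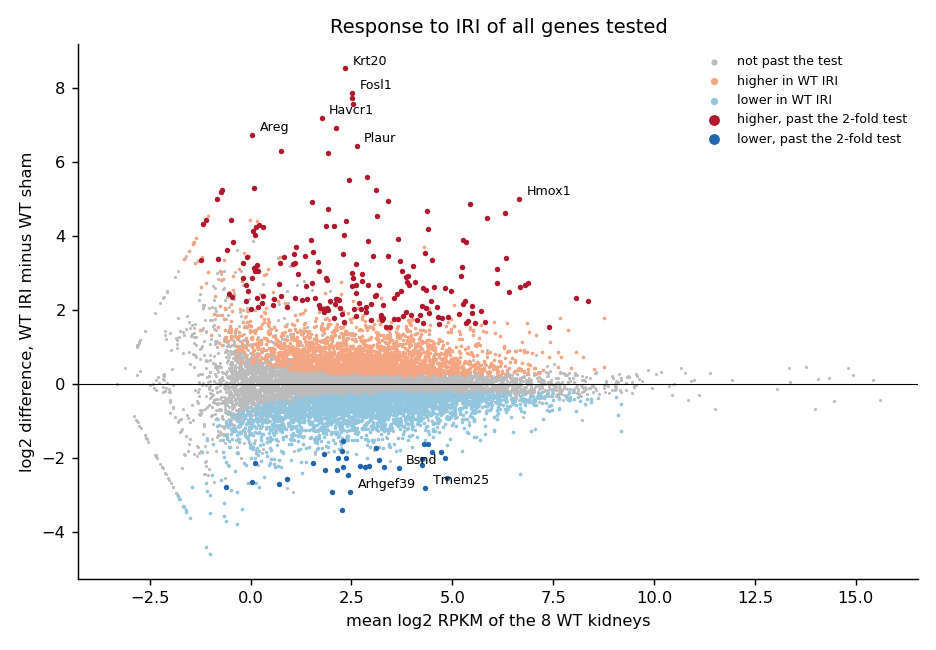
Log2 difference of WT IRI minus WT sham (vertical) against the mean log2 RPKM of the 8 WT kidneys (horizontal) for the 12608 genes tested. Coloured points passed limma at an adjusted p under 0.05 (2458 higher, 2558 lower), darker points also the 2-fold test (193 and 34), and 9 of the leading genes by the naming rule are labelled. Differences beyond 4 are mostly increases, 42 against 2 genes past the test.

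The largest increase of all genes tested was that of Krt20, a keratin of urothelium and gut that injured tubules switch on. Krt20, on chromosome 11 from 99428403 to 99438150, measured 6.83, 6.63, 6.26 and 6.72 in WT IRI kidneys, against −1.40, −1.69, −2.05 and −2.51 in WT sham kidneys. The groups lay far apart, with a log2 difference of 8.52 ± 0.55 (SE, adjusted p = 3.62e-08). Havcr1, which encodes KIM-1, a phosphatidylserine receptor of injured proximal tubule cells, measured 5.54, 5.14, 5.04 and 5.71 in WT IRI kidneys, against −0.64, −1.82, −2.70 and −2.14 in WT sham kidneys, and rose by a log2 difference of 7.18 ± 0.62 (SE, adjusted p = 5.29e-07). It lies on chromosome 11 from 46735080 to 46779578. Both injury genes were thus below RPKM 1 in all 4 sham kidneys and far above it in all 4 WT IRI kidneys. Plaur, the urokinase receptor, measured 5.99, 5.96, 5.41 and 6.03 in WT IRI kidneys, against −0.72, −1.43, 0.44 and −0.61 in WT sham kidneys, a log2 difference of 6.43. Hmox1, the heme oxygenase that breaks down heme (chromosome 8, 75093621 to 75100589), measured 9.38, 9.12, 9.23 and 8.90 in WT IRI kidneys, against 3.59, 4.70, 4.14 and 4.21 in WT sham kidneys. Unlike the keratin and KIM-1 it was already expressed in sham kidneys, and with a log2 difference of 5.00 ± 0.44 (SE, adjusted p = 6.72e-07) it had the highest mean log2 RPKM in WT IRI kidneys of the 15 leading genes.

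The rest of the 15 leading increases were mostly transcription factors, signalling ligands and stress genes. Areg, the EGF receptor ligand amphiregulin, was listed at the floor in all 4 WT sham kidneys and measured 3.74, 2.83, 3.52 and 3.54 in the WT IRI kidneys, and because the reference level is a floor no fold is given. Sprr2f, a cornified envelope protein, was at the floor in 3 WT sham kidneys, and Klf5, a transcription factor of epithelial growth, in 2, with differences of 6.29 and 5.29. Fosl1, the AP-1 subunit Fra-1, measured 6.55, 6.18, 6.22 and 6.85 in WT IRI kidneys, against −0.69, −1.60, −1.93 and −1.45 in WT sham kidneys. Its difference, 7.87, was the second largest. Atf3 (5.58), Maff (5.24) and Myc (4.95) are fast-induced transcription factors, Dusp5 (5.49) is a nuclear phosphatase of ERK, Chac1 (7.57) degrades glutathione, Trib3 (6.92) is a pseudokinase of the amino acid stress response, and Cxcl1 (7.71) attracts neutrophils. Each of the 15 had 4 WT IRI values above 4 WT sham values, which the rule for naming them required.

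**Figure D2:**
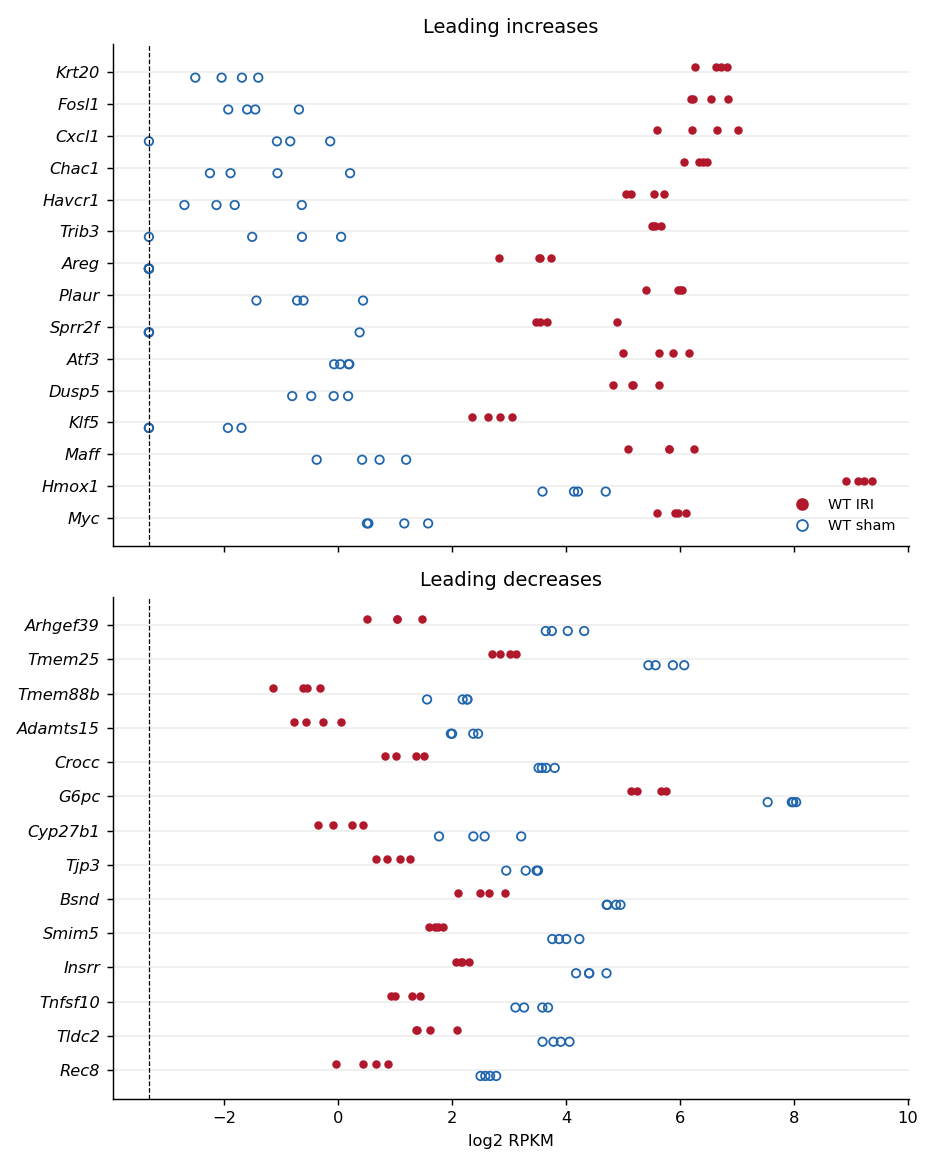
Log2 RPKM per kidney (horizontal) of the leading genes by the naming rule, 15 that rose (top panel) and 14 that fell (bottom panel); filled points are the 4 WT IRI kidneys, drawn above the 4 WT sham kidneys (open points), and the dashed line is the floor at −3.32. No gene has overlapping groups, which the naming rule required. The difference of means reaches 8.52 for Krt20 among the increases and −2.92 for Arhgef39 among the decreases.

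Immediate early genes, which cells transcribe within minutes of a stimulus without new protein, rose almost as a group. Of 23 members tested, 21 were higher and none lower, beside 19.5% and 20.3% of all genes, and 15 passed the 2-fold test; the median difference was 2.66. Without any 1 of the 8 WT kidneys the count stayed at 21. Fos, the founding AP-1 subunit, measured 3.36, 3.07, 3.53 and 3.79 in WT IRI kidneys, against −1.06, −0.86, 0.49 and −0.29 in WT sham kidneys, and Egr1, a zinc finger factor of serum and stress responses, measured 4.74, 4.55, 4.91 and 5.17 in WT IRI kidneys, against 0.48, 0.43, 1.71 and 1.26 in WT sham kidneys. The differences were 3.87 and 3.87, and neither gene's groups overlapped. Klf6, which rises early in injured tubules, measured 6.56, 6.08, 6.38 and 6.93 in WT IRI kidneys, against 1.75, 2.38, 2.53 and 2.63 in WT sham kidneys, a difference of 4.17. The whole AP-1 family on the list was higher, with differences of 4.29 for Fosb, 2.74 for Jun, 2.24 for Junb, 2.19 for Fosl2 and 1.97 for Jund. The members that did not pass were Ier3 (0.97, adjusted p = 0.143) and Dusp1 (0.81, adjusted p = 0.126). Egr3, Nr4a2 and Nr4a3 did not reach the filter on low values.

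Many genes that switch ERK and other MAP kinases off rose alongside: 13 of 15 tested phosphatases and feedback inhibitors were higher, none was lower, and the median difference was 1.30. The list is a selection, and over all 19 Dusp genes tested 8 were higher and 4 lower, with a median of 0.47; those that fell were Dusp9 (−1.78), Dusp15 (−1.45), Dusp23 (−0.66) and Dusp11 (−0.52), the last pair in 6 of 8 fits without 1 WT kidney. Dusp5 measured 5.18, 4.82, 5.16 and 5.63 in WT IRI kidneys, against 0.17, −0.08, −0.81 and −0.47 in WT sham kidneys. Dusp8, a phosphatase of JNK and p38, and Dusp14 rose by 4.92 and 2.91, and the receptor tyrosine kinase inhibitor Spry2 by 1.30. Among the ligands and receptors of the EGF family, 5 of 9 tested were higher and 1 was lower. The ligands Areg, Hbegf (3.54) and Nrg1 (3.45) and the receptor Egfr (1.01) rose, whereas the co-receptor Erbb2 fell by 0.59 on the log2 scale. Hbegf measured 6.18, 5.56, 6.03 and 6.64 in WT IRI kidneys, against 2.34, 2.56, 2.60 and 2.73 in WT sham kidneys, and Nrg1 measured 5.15, 5.04, 5.19 and 5.12 in WT IRI kidneys, against 1.70, 1.65, 1.93 and 1.41 in WT sham kidneys. Ereg was at the floor in all 8 kidneys. Egf, the ligand made by the distal nephron, had a difference of −0.70 that did not pass (adjusted p = 0.168).

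The integrated stress response had the highest share of called members of all lists with more than 10 genes tested, 92.3%. In this response, kinases that sense amino acid shortage, heme loss, viral RNA or endoplasmic reticulum stress phosphorylate eIF2α, and the factor ATF4 then induces amino acid transporters, synthesis enzymes and tRNA synthetases. Of 39 members tested 36 were higher and none was lower, 16 passed the 2-fold test, and the median difference was 1.47. The count was 31 with the 2 WT sham kidneys of the shared title prefix. Members were chosen with earlier results of these data known, so the share of 92.3% and its rank are not independent of these values. Atf4 itself measured 8.25, 7.96, 8.14 and 8.58 in WT IRI kidneys, against 5.39, 5.74, 5.46 and 5.51 in WT sham kidneys, with a log2 difference of 2.71 ± 0.28 (SE, adjusted p = 2.22e-06). Its partner and target Ddit3 (CHOP) measured 6.12, 5.89, 6.48 and 6.17 in WT IRI kidneys, against 3.29, 3.26, 2.35 and 2.38 in WT sham kidneys. Both were higher in every WT IRI kidney than in any WT sham kidney. Chac1 measured 6.41, 6.06, 6.33 and 6.47 in WT IRI kidneys, against −2.25, 0.21, −1.89 and −1.07 in WT sham kidneys, and Trib3 measured 5.53, 5.51, 5.55 and 5.67 in WT IRI kidneys, against −1.51, −3.32, −0.64 and 0.05 in WT sham kidneys. Asns, the asparagine synthetase, measured 4.42, 4.37, 4.13 and 4.41 in WT IRI kidneys, against 0.29, −0.41, 0.69 and 0.72 in WT sham kidneys, a 16.1-fold increase. The translation inhibitor Eif4ebp1 rose by 3.16, the arginine transporter Slc7a1 by 3.22, the mitochondrial folate enzyme Mthfd2 by 4.26, and the first enzyme of serine synthesis, Phgdh, by 3.42. All 12 cytosolic tRNA synthetases on the list rose, by 0.70 (Wars) to 1.80 (Cars). Of 8 further cytosolic synthetase genes 3 were higher and none lower, and of 17 mitochondrial ones 1 was higher and 6 were lower. The 3 members that did not pass were Sesn2 (0.33), Ddit4 (0.13) and Shmt2 (−0.07).

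The other branches of the endoplasmic reticulum response moved much less. Of 20 chaperones and degradation factors that ATF6 and XBP1 control, 5 were higher (25%) and 1 was lower (5%). Among all genes 19.5% were higher and 20.3% lower, and the median difference of the list was 0.03. The 5 were the co-chaperone Dnajb9 (2.24), Herpud1 (1.11), Xbp1 (0.99), the chaperone Hspa5 (0.92) and the lectin chaperone Canx (0.31). Sec61b, a subunit of the translocon, fell by 0.50 on the log2 scale. The calls of Canx (0.26 to 0.36) and Sec61b (−0.62 to −0.36) were lost without WT IRI kidney 1 or WT IRI kidney 2, and that of Canx also without WT sham kidney 1. Cytosolic heat shock chaperones stood between these lists, with 11 of 21 higher, none lower and a median of 0.47; 7 were higher with the WT sham kidneys of the shared prefix, and likewise without WT sham kidney 1. The co-chaperone Bag3 rose by 1.44, Hspb1 by 1.51 and Dnajb4 by 1.33, while Hspa8, the constitutive chaperone, had a difference of 0.07 that did not pass.

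**Figure D3:**
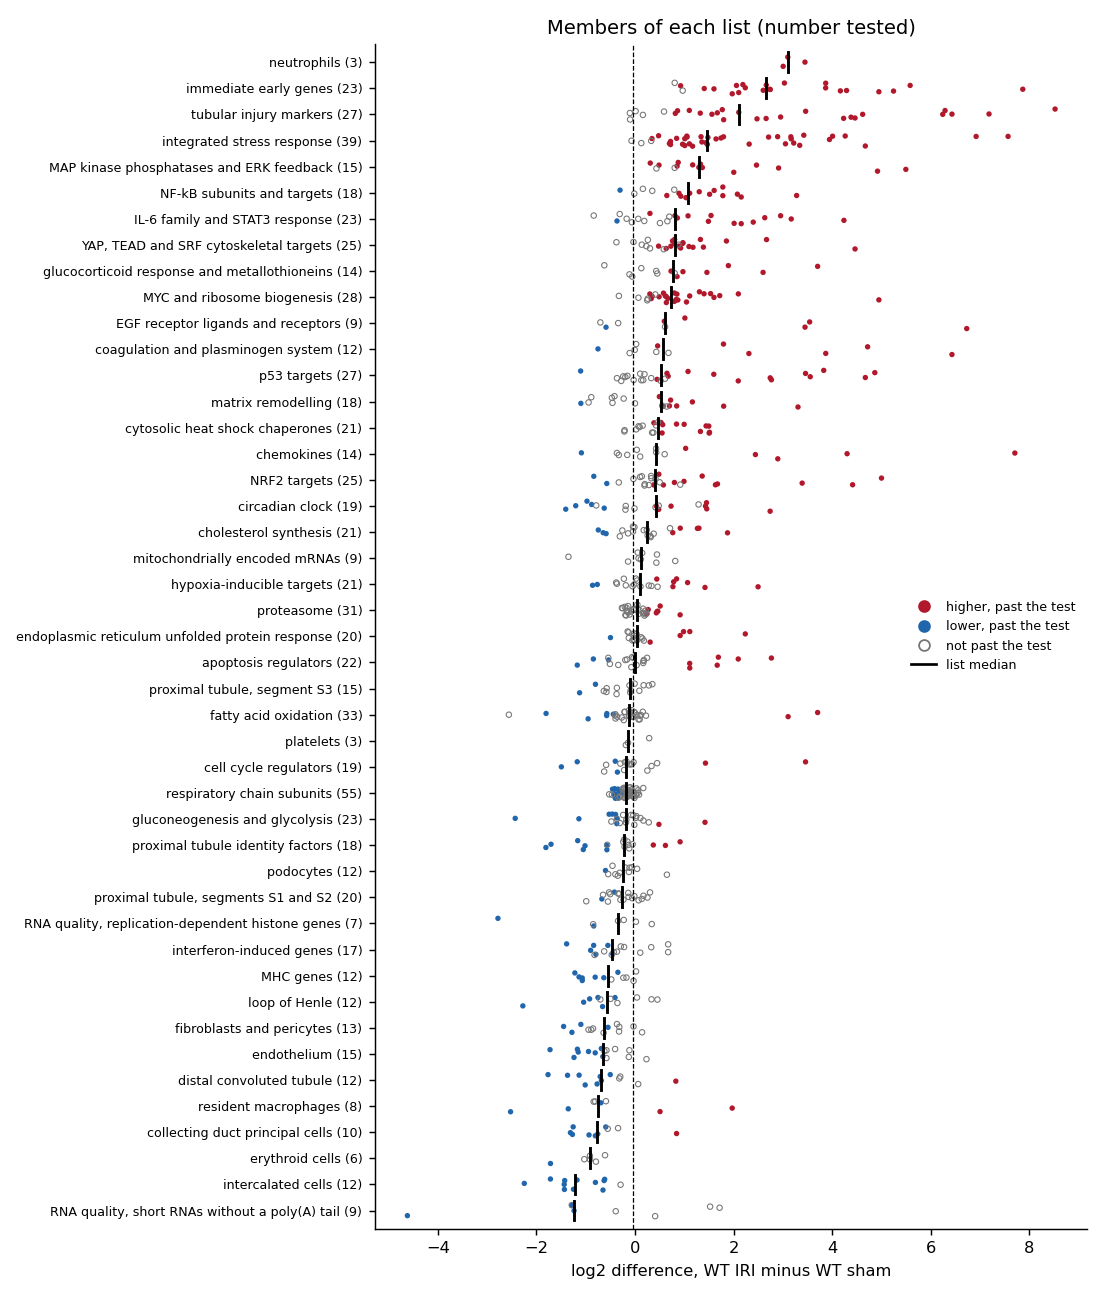
Log2 difference of WT IRI minus WT sham (horizontal) for each tested member of the gene lists, 1 point a gene, with filled points for members past the test and a vertical bar for the list median. Lists with at least 3 members tested are shown, and differences from a group at the floor are counted from it. The dashed line is the median of all 12608 genes, −0.05. List medians run from 3.10 for the 3 neutrophil markers that passed the filter to −1.21 for intercalated cell markers and −1.24 for short RNAs.

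Promoters of the genes that rose by more than 2-fold were compared with those of all genes tested, themselves included, at the level of short motifs, because genes that move together often share binding sites. A RefSeq window (GRCm38.p6) of 250 bases before to 50 bases after the start was matched to 9072 of the 12608 genes tested, 146 of the 193 that passed the 2-fold test upward among them. Motifs were searched on both strands with N for any base. The AP-1 motif TGANTCA stood in 11.6% of those 146 windows and in 4.64% of all 9072, the cAMP response element TGACGTCA in 6.85% and 3.25%, the C/EBP-ATF composite TGATGNAA in 5.48% and 2.04%, and the NF-κB motif GGAANTTCC in 2.74% and 1.07%. The hypoxia core ACGTG (21.9% and 25.8%) and the E-box CACGTG, which contains it (7.53% and 10.5%), were not more frequent in these 146, but over all 1833 higher genes with a window they stood in 29.0% and 12.4%. The other motifs named so far were closer to all genes in that wider set, with 5.73% for AP-1, 3.98% for the cAMP response element, 3.22% for C/EBP-ATF and 1.64% for NF-κB. Mean G and C content was 63.4% in the 1833 and 61.1% in all windows. The heat shock core GAANNTTC stood in 8.22% and 5.76%, the antioxidant core TGANNNNGC in 40.4% and 42.7%, the HNF4 motif CAAAGTCCA in 0 and 0.419%, and the serum response core CATATTAGG in 0 and 0.0661%. These shares are a description of letters in a window and were not tested. The first pair of windows holds the C/EBP-ATF motif, in capitals, and belongs to the stress response genes Chac1 and Asns; each shows the 250 bases before the start, 5′ to 3′ in the direction of the gene. The Chac1 window lies at chr2:119350992-119351241 on the plus strand, with the motif, read on the opposite strand, 193 bases before the start, and the Asns window at chr6:7693210-7693459 on the minus strand, with the motif 23 bases before it.
Chac1: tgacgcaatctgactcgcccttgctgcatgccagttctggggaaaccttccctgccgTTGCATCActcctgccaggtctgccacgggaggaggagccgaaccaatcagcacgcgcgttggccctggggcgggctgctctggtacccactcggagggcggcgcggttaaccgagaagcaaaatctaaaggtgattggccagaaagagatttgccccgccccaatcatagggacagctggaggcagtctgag
Asns: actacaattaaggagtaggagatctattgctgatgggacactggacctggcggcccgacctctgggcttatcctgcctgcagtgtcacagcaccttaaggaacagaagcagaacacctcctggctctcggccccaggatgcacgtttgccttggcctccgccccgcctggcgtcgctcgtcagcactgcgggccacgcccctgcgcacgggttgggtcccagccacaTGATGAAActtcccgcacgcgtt

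The next windows show, again in capitals, the AP-1 motif of Plaur (chr7:24462233-24462482, plus strand, 69 bases before the start) and of Sprr1a (chr3:92485882-92486131, minus strand, 146 and 116 bases before it), a cornified envelope gene that rose by 4.38. They also show the cAMP response element of Areg (chr5:91139349-91139598, plus strand, 61 bases before the start) and of Ppp1r15a (chr7:45526269-45526518, minus strand, 12 bases before it), the eIF2α phosphatase subunit GADD34, which rose by 2.89.
Plaur: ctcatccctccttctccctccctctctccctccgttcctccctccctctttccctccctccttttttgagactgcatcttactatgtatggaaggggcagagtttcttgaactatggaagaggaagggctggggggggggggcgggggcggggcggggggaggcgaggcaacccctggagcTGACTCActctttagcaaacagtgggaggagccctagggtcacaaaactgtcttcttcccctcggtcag
Sprr1a: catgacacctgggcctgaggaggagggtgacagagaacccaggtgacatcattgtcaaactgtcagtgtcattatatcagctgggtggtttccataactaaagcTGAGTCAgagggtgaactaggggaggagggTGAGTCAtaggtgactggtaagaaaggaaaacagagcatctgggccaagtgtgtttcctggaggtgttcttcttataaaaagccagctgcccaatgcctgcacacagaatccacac
Areg: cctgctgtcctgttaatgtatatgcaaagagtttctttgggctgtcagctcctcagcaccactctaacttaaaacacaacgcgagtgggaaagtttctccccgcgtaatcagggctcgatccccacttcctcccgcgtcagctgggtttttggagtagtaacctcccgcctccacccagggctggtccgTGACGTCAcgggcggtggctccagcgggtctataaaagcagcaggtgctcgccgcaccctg
Ppp1r15a: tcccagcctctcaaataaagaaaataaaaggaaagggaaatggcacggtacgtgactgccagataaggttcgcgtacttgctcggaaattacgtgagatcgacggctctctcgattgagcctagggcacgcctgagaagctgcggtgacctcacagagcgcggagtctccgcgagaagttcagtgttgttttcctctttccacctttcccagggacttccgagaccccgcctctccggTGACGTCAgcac

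The last pair, Cxcl1 (chr5:90890995-90891244) and Cxcl2 (chr5:90903649-90903898), are neighbouring chemokine genes on the plus strand of chromosome 5 whose windows hold the same NF-κB sequence, in capitals, 70 and 96 bases before the start.
Cxcl1: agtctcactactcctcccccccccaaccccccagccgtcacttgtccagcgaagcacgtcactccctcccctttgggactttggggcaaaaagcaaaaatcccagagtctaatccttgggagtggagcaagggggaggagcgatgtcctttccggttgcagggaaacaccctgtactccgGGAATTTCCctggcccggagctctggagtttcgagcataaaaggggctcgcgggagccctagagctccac
Cxcl2: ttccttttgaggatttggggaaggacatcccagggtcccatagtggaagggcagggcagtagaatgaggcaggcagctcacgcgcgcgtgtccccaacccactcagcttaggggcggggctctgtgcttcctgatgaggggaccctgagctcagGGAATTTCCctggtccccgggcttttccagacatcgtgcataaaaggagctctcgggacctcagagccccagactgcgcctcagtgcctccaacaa

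Both chemokines rose. Cxcl1 measured 7.01, 6.20, 5.59 and 6.64 in WT IRI kidneys, against −3.32, −1.07, −0.84 and −0.14 in WT sham kidneys, and Cxcl2 measured 0.95, 1.05, 0.96 and 0.96 in WT IRI kidneys, against −3.32, −3.32, −3.32 and −3.32 in WT sham kidneys, the floor. Of 14 chemokine genes tested 5 were higher, the other three being Ccl2, Cxcl10 (2.44) and Cxcl14, whose call was lost in 5 of 8 fits without 1 WT kidney (differences of 0.74 to 1.32), and Cxcl12, which attracts CXCR4-bearing cells, fell by 1.09 on the log2 scale. The shares were 35.7% higher and 7.14% lower, beside 19.5% and 20.3% of all genes. The other 12 chemokines of the list did not reach the filter. Cxcl1 and Cxcl2 were below log2 0 in all 4 WT sham kidneys and above it in all 4 WT IRI kidneys. Those 4 WT IRI kidneys met the filter on their own, so the rise of both was partly fixed by it. NF-κB subunits and targets were higher in 13 of 18 cases and lower in 1, with a median of 1.07. The subunit Relb measured 3.47, 3.29, 3.17 and 3.31 in WT IRI kidneys, against 0.39, −0.63, −0.06 and 0.42 in WT sham kidneys. Nfkb2 rose by 1.78, Rela by 1.78 and the adhesion molecule Icam1 by 1.30, and Sod2, the mitochondrial superoxide dismutase, fell by 0.30 on the log2 scale. Tnf, Il1b and Il6 were below the filter, and Il6 was above the floor in 1 of 4 WT IRI and 0 of 4 WT sham kidneys.

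The IL-6 family and STAT3 list had 13 of 23 members higher and 1 lower (10 and 1 with the WT sham kidneys of the shared prefix). Lif, a cytokine that signals through gp130, measured 2.85, 1.88, 2.39 and 2.58 in WT IRI kidneys, against −1.92, −1.78, −2.16 and −1.40 in WT sham kidneys, and Stat3, the transcription factor it activates, measured 4.25, 4.23, 4.11 and 4.30 in WT IRI kidneys, against 2.57, 2.51, 2.92 and 2.71 in WT sham kidneys. The feedback inhibitor Socs3 rose by 2.63, the co-activator Bcl3 by 2.15, the cytokine Clcf1 by 2.01 and the factor Cebpb by 3.17. The receptor chain Lifr fell by 0.36 on the log2 scale. Lcn2, which encodes the urinary injury marker NGAL, measured 2.85, 2.27, 2.71 and 2.74 in WT IRI kidneys, against −0.63, −0.83, 0.38 and −0.15 in WT sham kidneys, with a log2 difference of 2.95 ± 0.49 (SE, adjusted p = 0.000205). Interferon-induced and antigen presentation genes went the other way. None of 17 interferon-induced genes was higher and 6 were lower, led by Rsad2 (−1.39), Stat2 (−0.90), Irf7 (−0.84) and Gbp3 (−0.79), and none of 12 MHC genes was higher while 7 were lower. The class II genes H2-DMb1 (−1.07), H2-Eb1 (−1.07), H2-Aa (−1.22) and Cd74 (−1.14) fell, and the class I genes H2-K1 (−0.03) and H2-D1 (0.02) had differences near 0. Without WT IRI kidney 4 the lower MHC genes numbered 4.

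Tubular injury markers were higher in 22 of 27 cases and lower in none, 14 passed the 2-fold test, and the median difference was 2.11. Sox9, a transcription factor of tubular repair, measured 2.84, 1.96, 1.84 and 2.41 in WT IRI kidneys, against −3.32, −1.16, −1.90 and −1.50 in WT sham kidneys. Every sham value was below RPKM 1 and every WT IRI value above it, with a log2 difference of 4.23 ± 0.56 (SE, adjusted p = 2.44e-05). The calcium-binding protein S100a10 measured 8.09, 8.03, 8.10 and 8.26 in WT IRI kidneys, against 5.60, 5.57, 5.43 and 5.24 in WT sham kidneys, and Tnfrsf12a, the receptor of TWEAK, measured 8.65, 8.44, 8.55 and 8.82 in WT IRI kidneys, against 3.58, 4.06, 4.20 and 4.15 in WT sham kidneys. Keratins of simple epithelium rose as well, Krt8 by 2.48 and Krt19 by 3.46. The members that did not pass were S100a6 (0.59), Vcam1 (0.16), Il18 (0.01), Vim (−0.10) and Krt7 (−0.10); Cd44 did not reach the filter. This list holds markers known from kidney injury, Havcr1, Lcn2 and Sox9 among those the study measured. Like the other lists, it was written with earlier results of these data known. Its share of higher genes, 81.5% beside 19.5% of all genes, is therefore not independent of these values.

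The antioxidant genes controlled by NRF2 were split between a few strong increases and many small differences. Of 25 tested 11 were higher and 2 were lower, and 3 passed the 2-fold test: Hmox1, Srxn1 (3.39), which reactivates peroxiredoxins, and the glutathione transferase Gsta1 (4.41). Gclc, the catalytic subunit that makes the glutathione precursor, measured 7.53, 7.53, 7.52 and 8.07 in WT IRI kidneys, against 5.99, 6.38, 5.73 and 6.01 in WT sham kidneys. Its partner Gclm differed by 0.58 (adjusted p = 0.00441), a smaller increase. Nqo1, the quinone reductase often used to read NRF2 activity, measured 5.14, 5.45, 5.32 and 4.83 in WT IRI kidneys, against 5.06, 4.61, 4.67 and 4.73 in WT sham kidneys. Its groups overlapped and the difference of 0.42 ± 0.17 (SE) did not pass (adjusted p = 0.0663), although it did without WT sham kidney 1 or WT IRI kidney 4 (0.33 to 0.53 over the 8 fits without 1 WT kidney). Txnrd1, the thioredoxin reductase, rose by 1.67, while the epoxide hydrolase Ephx1 and the biliverdin reductase Blvrb fell by 0.84 and 0.57 on the log2 scale.

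Among p53 targets 13 of 27 were higher and 1 was lower, with a median of 0.52. Gadd45a, a stress and DNA damage sensor, measured 6.98, 6.80, 7.61 and 7.64 in WT IRI kidneys, against 3.14, 3.89, 3.33 and 3.36 in WT sham kidneys, and Cdkn1a, the cell cycle inhibitor p21, measured 5.16, 4.39, 4.67 and 4.87 in WT IRI kidneys, against 0.40, 0.05, 2.43 and 2.38 in WT sham kidneys. Neither gene's groups overlapped, and for Cdkn1a the WT sham kidneys of the shared title prefix were the higher pair; against that pair alone its difference was 2.37, against all 4 it was 3.46. Plk3, a stress kinase, rose by 4.86, Rap2b, a small GTPase, by 3.55 and the antiproliferative factor Btg2 by 2.74. Pidd1, a death domain protein, fell by 1.10 on the log2 scale, and several classical targets did not pass, with differences of −0.20 for Bax, 0.10 for Ccng1 and −0.37 for Sesn1. Of 22 apoptosis regulators 6 were higher (27.3%) and 3 lower (13.6%), beside 19.5% and 20.3% of all genes, with a median difference of 0.0. Those that rose included the survival genes Bcl2l1 (Bcl-xL) and Mcl1 (1.67) and the BH3-only gene Pmaip1 (2.77), and those that fell were the BH3 genes Bad (−0.54), Bik (−0.84) and Bmf (−1.17). Bcl2l1 measured 6.30, 6.36, 6.10 and 6.13 in WT IRI kidneys, against 4.34, 4.26, 4.88 and 4.65 in WT sham kidneys, with a log2 difference of 1.69 ± 0.16 (SE, adjusted p = 1.28e-06). Hmgb1, a chromatin protein that acts as an alarmin outside the cell, measured 3.72, 3.72, 3.83 and 3.72 in WT IRI kidneys, against 4.12, 4.00, 3.87 and 4.00 in WT sham kidneys, a small decrease of 0.25 on the log2 scale (adjusted p = 0.0194) that did not pass without WT sham kidney 1 or with the WT sham kidneys of the shared prefix (−0.19).

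Growth-related genes rose as well. Of 28 genes of MYC and ribosome biogenesis 23 were higher and none was lower, with a median of 0.73, and 20 to 24 were higher when 1 WT kidney was left out. Myc measured 5.96, 5.59, 5.91 and 6.10 in WT IRI kidneys, against 1.58, 1.16, 0.53 and 0.50 in WT sham kidneys. The nucleolar genes Gnl3 (2.10), Nop56 (1.53) and Ddx21 (1.31) had smaller increases. Cytoskeletal targets of YAP, TEAD and SRF were higher in 17 of 25 cases and lower in none, among them the matricellular gene Cyr61 (4.46), the adhesion proteins Vcl (1.85) and Zyx (1.10) and the tropomyosin Tpm4 (1.39). Ctgf, which encodes CCN2 and lies on chromosome 10 from 24595442 to 24598683, measured 4.95, 5.02, 4.41 and 3.92 in WT IRI kidneys, against 2.65, 3.95, 3.91 and 4.26 in WT sham kidneys. The groups overlapped, and its difference of 0.88 ± 0.37 (SE) did not pass (adjusted p = 0.0648). It passed without WT sham kidney 4 or without WT IRI kidney 4, over a range of 0.53 to 1.10 with 1 WT kidney left out, and against the WT sham kidneys of the shared title prefix it was 0.49. Cell cycle genes did not rise as a list, with 2 of 19 higher (Cdkn1a and the kinase Cdk6) and 4 lower, Ccnd1, the cyclin D1 gene, by 1.17 on the log2 scale. The 4 became 2 without WT sham kidney 2, WT sham kidney 3 or WT IRI kidney 1, and with the WT sham kidneys of the shared prefix.

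Coagulation and matrix genes rose selectively. F3, tissue factor, measured 7.24, 6.92, 7.35 and 7.27 in WT IRI kidneys, against 3.16, 3.47, 3.19 and 3.49 in WT sham kidneys. With Plaur and the urokinase gene Plau (2.31) it was among the 6 higher genes of 12 tested, and Tfpi2 was lower (−0.75), a call that 6 of the 8 fits without 1 WT kidney did not give (−0.90 to −0.60). The protease Adamts1 rose by 3.31 and was the only matrix gene of 18 past the 2-fold test. The syndecan Sdc4 (0.85) and the collagen chain Col4a1 (0.57) rose less, and Col1a1 fell (−1.10; the call was lost in 6 of 8 fits without 1 WT kidney, at −1.41 to −0.65). Genes induced by hypoxia rose modestly as a list, with a median of 0.11. Of 21 tested 7 were higher (33.3%) and 2 lower (9.52%), beside 19.5% and 20.3% of all genes. The mean of the list was 3.91 to 3.95 in WT IRI and 3.53 to 3.71 in WT sham kidneys. Adm, the vasodilator adrenomedullin, rose by 2.50 and the glucose transporter Slc2a1 by 1.07, but Vegfa and the kinase Pdk1 fell by 0.76 and 0.86 on the log2 scale. Hk2 and Epo did not reach the filter.

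Proteasome, clock and cholesterol synthesis genes moved in both directions or little, whereas metallothioneins and glucocorticoid-responsive genes moved upward in part. Proteasome subunits had 7 of 31 higher, close to the share of all genes, and Psmd11 (0.92) was the strongest. Metallothioneins and glucocorticoid-responsive genes were higher in 7 of 14 cases and lower in 0, with a median of 0.77. The metal-binding protein Mt2 rose by 2.60 and Mt1 by 1.46. With the WT sham kidneys of the shared prefix 4 of 14 were higher and 1 was lower. Clock genes were split, with 7 of 19 higher and 5 lower. The repressors Nfil3 (2.74) and Bhlhe40 (1.43) rose and the output factors Dbp (−0.97, past the test in 2 of 8 fits without 1 WT kidney), Tef (−1.20) and Hlf (−0.62) fell, along with Per3 (−1.40). Clock calls rested on single kidneys, since without WT IRI kidney 4 or WT sham kidney 1 the higher genes numbered 3, without WT sham kidney 3, WT IRI kidney 1 or WT IRI kidney 3 they numbered 4, and without WT sham kidney 1 the lower genes numbered 3. Cholesterol synthesis genes had 5 of 21 higher (23.8%, near the 19.5% of all genes), led by the methylsterol oxidase Msmo1 (1.88) and Sqle (1.27), and 3 lower, Mvd (−0.65), Dhcr7 (−0.74) and Stard4 (−0.59), the last in 4 of 8 fits without 1 WT kidney.

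Decreases were smaller in size and came from other kinds of genes. Among annotated genes with an RPKM over 4 in WT sham kidneys the largest was that of Arhgef39, an exchange factor of small GTPases, which measured 0.51, 1.04, 1.47 and 1.03 in WT IRI kidneys, against 4.03, 4.32, 3.64 and 3.75 in WT sham kidneys, with a log2 difference of −2.92 ± 0.25 (SE, adjusted p = 5.29e-07). Tmem25, a membrane protein, measured 2.71, 3.02, 2.84 and 3.13 in WT IRI kidneys, against 5.87, 6.07, 5.44 and 5.57 in WT sham kidneys, a 7.06-fold decrease. Bsnd, which encodes barttin, the subunit that chloride channels of the thick ascending limb and intercalated cells need, measured 2.50, 2.93, 2.64 and 2.10 in WT IRI kidneys, against 4.71, 4.72, 4.95 and 4.88 in WT sham kidneys. G6pc, the glucose-6-phosphatase that completes gluconeogenesis, measured 5.24, 5.66, 5.15 and 5.76 in WT IRI kidneys, against 7.54, 7.96, 8.04 and 7.99 in WT sham kidneys, and Cyp27b1, the enzyme that makes active vitamin D, measured −0.09, −0.35, 0.44 and 0.25 in WT IRI kidneys, against 2.37, 3.21, 2.57 and 1.77 in WT sham kidneys. For these genes no WT IRI kidney reached the lowest WT sham kidney, which the rule for naming them required. G6pc and Cyp27b1 did not pass the 2-fold test (adjusted p = 0.0587 and 0.115). The naming rule also gave Tmem88b (−2.72), Smim5 (−2.25) and Tldc2 (−2.22), the protease Adamts15 (−2.59), the tight junction protein Tjp3 (−2.34), the ciliary rootlet gene Crocc (−2.46), the insulin receptor relative Insrr (−2.25), which senses alkaline pH in intercalated cells, the death ligand Tnfsf10 (−2.24) and the cohesin subunit Rec8 (−2.15).

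Few metabolic genes of the tubule were higher at 4 h, while the share of lower genes differed between lists. Of 33 genes of fatty acid oxidation 5 were lower (15.2%) and 2 higher (6.06%). Of 23 genes of gluconeogenesis and glycolysis 7 were lower (30.4%) and 2 higher (8.7%). Among all genes 20.3% were lower and 19.5% higher. The 5 became 3 with the WT sham kidneys of the shared prefix, and the 7 became 4 without WT sham kidney 3 or WT sham kidney 4. Those that rose were not oxidation enzymes themselves: Pdk4 (3.70) inhibits pyruvate dehydrogenase, Plin2 (3.11) coats lipid droplets, Pfkfb3 (1.42) makes the activator of phosphofructokinase and Pfkp (0.49) is its platelet isoform, past the test in 3 of 8 fits without 1 WT kidney. Plin2 measured 7.88, 7.48, 7.49 and 7.77 in WT IRI kidneys, against 4.63, 4.29, 4.72 and 4.57 in WT sham kidneys. The thiolase Acaa1b fell by 0.95 on the log2 scale, the muscle-type phosphofructokinase Pfkm by 1.14 and the bisphosphatase Fbp1 by 0.39. Respiratory chain subunits encoded in the nucleus had 13 of 55 lower (23.6%, near the 20.3% of all genes) and none higher, each by 0.46 or less on the log2 scale, with −0.41 for Ndufs8, −0.36 for Sdhb and −0.42 for Atp5d; the count was 6 without WT IRI kidney 1 or WT IRI kidney 2 and 8 with the WT sham kidneys of the shared prefix. None of 9 mitochondrially encoded mRNAs passed limma's test, and 0 had an unadjusted p under 0.05.

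Transcription factors that keep tubular identity were lower in 7 of 18 cases (38.9%) and higher in 3 (16.7%), beside 20.3% and 19.5% of all genes. Lhx1 (−1.81), Emx1 (−1.70) and Nr3c2, the mineralocorticoid receptor (−1.05), were among those that fell, whereas Pax8 (0.62), the bile acid receptor Nr1h4 (0.92) and Esrrg (0.37) rose. With the WT sham kidneys of the shared prefix the call of Nr1h4 was lost, at a difference of 0.71. Hnf4a, the master factor of the proximal tubule, had a difference of −0.05 that did not pass.

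Markers of the nephron segments fell unevenly, in larger shares along the distal nephron than in the proximal tubule. In bulk RNA fewer cells of a type and less RNA per cell cannot be told apart. Of 20 proximal tubule markers of segments S1 and S2 only Lrp2, the endocytic receptor megalin (−0.67), and the anion transporter Slc22a8 (−0.42) were lower, and of 15 of segment S3 only Slc16a9 (−1.12) and Aspa (−0.80) were, shares of 10% and 13.3% that are below the 20.3% of all genes. Every WT IRI kidney was nonetheless below every WT sham kidney for 7 of the 20 S1 and S2 markers, beside 18.9% of all genes, with a median difference of −0.26, and 4 were lower without WT IRI kidney 2. The summed RPKM of the S1 and S2 markers was 6620 to 8800 in WT IRI and 7100 to 8570 in WT sham kidneys. In the loop of Henle 6 of 12 were lower, among them the potassium channel Kcnj1 (−1.04) and Cldn10 (−0.40, not past the test without WT IRI kidney 1), and 3 without WT IRI kidney 1; Umod, the most abundant loop transcript, differed by 0.04. In the distal convoluted tubule 8 of 12 were lower, with −1.76 for Klhl3, −1.01 for Wnk1 and −0.77 for Wnk4, regulators of the sodium chloride cotransporter, and the calcium channel Trpv5 rose by 0.83. Klhl3 measured 0.63, −0.12, 0.72 and 0.12 in WT IRI kidneys, against 1.57, 2.56, 2.34 and 1.94 in WT sham kidneys.

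Of the collecting duct principal cell markers 7 of 10 were lower, including the vasopressin receptor Avpr2 (−1.27), the cortisol-inactivating enzyme Hsd11b2 (−1.31), the channel subunit Scnn1b (−0.80) and Kcne1 (−1.25), and the water channel Aqp2 was higher (0.84), though not past the test without WT sham kidney 1 (range 0.72 to 0.95 over the 8 fits without 1 WT kidney). Intercalated cell markers fell most completely, with 11 of 12 lower, none higher and a median of −1.21. The proton pump subunit Atp6v1b1 measured 4.84, 4.95, 4.51 and 4.98 in WT IRI kidneys, against 6.39, 6.21, 6.24 and 6.17 in WT sham kidneys, and the anion exchanger Slc4a1 measured 0.54, 0.45, 0.45 and 0.90 in WT IRI kidneys, against 2.18, 1.84, 2.83 and 2.35 in WT sham kidneys. Both had WT IRI values below all WT sham values. The ammonia channel Rhcg fell by 1.44 and the pump subunit Atp6v1c2 by 1.43 on the log2 scale, and Foxi1, the factor that specifies these cells, had a difference of −0.29 that did not pass. Summed over the 12 markers the RPKM was 197 to 254 in WT IRI and 409 to 446 in WT sham kidneys. Between 10 and 11 remained lower with 1 WT kidney left out, and 9 with the WT sham kidneys of the shared prefix.

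**Figure D4:**
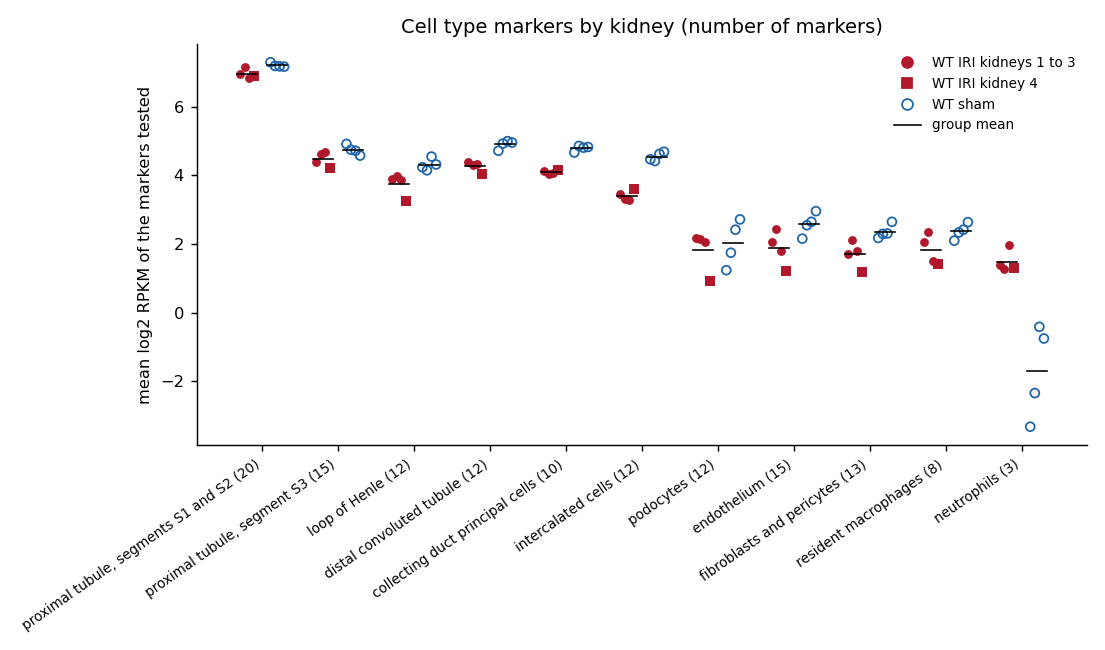
Mean log2 RPKM of the tested markers of each cell type per kidney (vertical axis), WT IRI kidneys as filled points left of WT sham kidneys as open points, with WT IRI kidney 4 drawn as a square. The intercalated cell means do not overlap between groups (3.29 to 3.60 in WT IRI, 4.42 to 4.69 in WT sham). WT IRI kidney 4 is the lowest of its group for podocytes, endothelium, fibroblasts and macrophages. It is also the lowest for segment S3 of the proximal tubule, the loop of Henle and the distal convoluted tubule.

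Markers of vessels, stroma and resident immune cells were lower in part, and 1 kidney weighed on them. Of 15 endothelial markers 8 were lower and none higher, with −1.72 for the fenestral diaphragm gene Plvap and −1.17 and −1.24 for the angiopoietin receptors Tie1 and Tek. Plvap measured 3.64, 4.35, 2.78 and 1.83 in WT IRI kidneys, against 4.48, 4.65, 5.09 and 5.28 in WT sham kidneys. Igfbp3, a growth factor carrier of vessels, measured 3.75, 4.45, 3.43 and 2.09 in WT IRI kidneys, against 4.38, 4.26, 5.02 and 5.12 in WT sham kidneys; its call was lost without WT sham kidney 3, WT sham kidney 4 or WT IRI kidney 4. WT IRI kidney 4 was the lowest of the 8, and without it 5 endothelial markers were lower, as without WT sham kidney 4. WT IRI kidney 4 also had the lowest mean over podocyte markers, 0.93, against 2.05 to 2.18 in the other WT IRI kidneys. In WT sham kidneys that mean was 1.24, 1.75, 2.42 and 2.72, the last pair being those of the shared title prefix. The genes that varied most among WT IRI kidneys also included Bgn, Gimap4, Exoc3l2 and H2-Aa, each lowest in WT IRI kidney 4. The part of these cell types' markers in the other list counts was not tested. Fibroblast and pericyte markers were lower in 4 of 13 cases, Dcn by 1.28 and Gucy1a1 by 1.45 on the log2 scale, and 1 of 12 podocyte markers was, Clic5 (−0.62). Without WT IRI kidney 2 the fibroblast count was 7. With the WT sham kidneys of the shared prefix 2 podocyte markers were lower and the podocyte median was −0.83, against −0.25 with all 4. Macrophage genes changed in both directions. The lysosomal gene Cd68 rose by 1.97 and Csf1r by 0.51 (lost in 5 of 8 fits without 1 WT kidney), and Folr2 (−2.52), C1qa (−1.35) and Mpeg1 (−0.69, lost in 3 of 8 such fits) fell.

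The variation among the WT IRI kidneys was not only vascular. Pdk4, which is also induced by fasting and glucocorticoids, measured 6.44, 4.88, 6.21 and 7.02 in WT IRI kidneys, against 2.58, 1.57, 2.57 and 3.0 in WT sham kidneys, and Slc10a2, the apical bile acid transporter, measured 3.81, 4.33, 2.66 and 3.92 in WT IRI kidneys, against 3.01, 2.04, 0.44 and 1.04 in WT sham kidneys. The lowest WT IRI kidney was number 2 for Pdk4 and number 3 for Slc10a2, whose groups overlapped although its difference of 2.05 passed the test (adjusted p = 0.0217). It did not pass without WT sham kidney 3, WT sham kidney 4 or WT IRI kidney 2 (1.65 to 2.51).

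Neutrophil transcripts were higher in WT IRI kidneys at a low level. All 3 members that passed the filter rose, S100a8, which measured 2.13, 1.01, 2.29 and 1.29 in WT IRI kidneys, against −3.32, −3.32, −0.24 and −0.18 in WT sham kidneys, S100a9 (3.10) and Retnlg (3.01), although against the WT sham kidneys of the shared prefix the differences were 1.89 for S100a8, which did not pass (adjusted p = 0.0887), 2.37 for S100a9 and 1.92 for Retnlg. The other 12 did not pass the filter, with Ly6g, Camp, Stfa2l1 and Elane at the floor in all 8 kidneys. S100a8 was below log2 0 in all 4 WT sham kidneys, and the mean of the 3 markers there was −3.32 to −0.41. The filter needs 4 kidneys over log2 0, and the 4 WT IRI kidneys, where S100a8 was high, met it on their own. That all 3 rose was thus partly fixed by the filter. The summed RPKM of all 15 was 10.9 to 16.6 in WT IRI and 1.91 to 4.42 in WT sham kidneys. Their part in the rise of chemokine and NF-κB genes was not tested. Lymphocyte markers were mostly below the filter, and Ighm fell by 2.07 on the log2 scale. Of 6 erythroid transcripts none but Slc4a1, which intercalated cells also express, passed, and none of 3 platelet markers did (0 at an unadjusted p under 0.05).

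Signs of RNA processing moved with the groups too. Of 9 short RNAs without a poly(A) tail 4 were lower in WT IRI kidneys, Snord118, which was at the floor in all 4, Rmrp (−1.29), Rn7sk (−1.28) and Rpph1 (−1.24), and their summed RPKM was 413 to 1080 in WT IRI and 1090 to 1950 in WT sham kidneys; 1 was lower with the WT sham kidneys of the shared prefix. Small nucleolar RNAs, which mostly lack a poly(A) tail as well, had a median difference of 0.88, counted from the floor where a group was at it. Of 135 tested 14 were higher (10.4%) and 5 lower (3.7%), both below the 19.5% and 20.3% of all genes. Long noncoding genes were more often lower than protein-coding ones, with 11 higher and 40 lower of 122 lincRNAs and 15 higher and 44 lower of 167 antisense genes, beside 20.6% higher and 20.7% lower of 11493 protein-coding genes. Reads of a gene and its antisense partner may not be separable, because the strand setting of the counting is not stated. Protein-coding genes in the longest quartile by exon length were higher in 25.2% and lower in 16.5% of cases, those in the shortest quartile in 13.9% and 22.5%. The part of RNA quality or transcript length in the list counts was not tested.

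The same injury in CCN2 KO kidneys, a comparison that shares no kidney with the WT one, called 1800 genes higher (14.3%) and 1663 lower (13.2%). Higher genes called in both numbered 1418, which is 78.8% of the CCN2 KO calls and 57.7% of the WT calls, and lower genes called in both numbered 1102 (66.3% and 43.1%); 10 genes were called in opposite directions. The difference of the responses, CCN2 KO minus WT, passed its own test for 16 genes upward (0.127%) and 7 downward (0.0555%), with 1884 of 12608 at an unadjusted p under 0.05. So for most of the genes described above no difference between the responses was shown. List medians were 1.59 in CCN2 KO and 2.66 in WT kidneys for immediate early genes, 1.21 in CCN2 KO and 1.47 in WT kidneys for the integrated stress response, 1.87 and 2.11 in the same order for injury markers, and −0.60 and −1.21 for intercalated cells. For some lists the medians had opposite signs, with 0.28 in CCN2 KO and −0.56 in WT kidneys for MHC genes and 0.35 and −0.75 for resident macrophages, and for the loop of Henle they were 0.02 and −0.58. None of these differences between list medians was tested.

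Among the genes whose response differed, the WT change was the larger one for most. Rap2b rose by 1.11 in CCN2 KO and by 3.55 in WT kidneys, a difference of −2.45 ± 0.41 (SE, adjusted p = 0.0186). Ier2, an immediate early gene, rose by 0.81 in CCN2 KO and 2.66 in WT kidneys, and the antiproliferative gene Btg1 by 0.84 and 2.42, in the same order. Bsnd differed by −0.66 in CCN2 KO and by −2.27 in WT kidneys, Tmem88b by −0.48 and −2.72, Zkscan3 by −0.57 and −2.05, and the growth factor receptor Fgfr3 by −0.28 and −1.58. Gpam, an enzyme of triglyceride synthesis, and Ppp1r10, a nuclear phosphatase subunit, had opposite signs, with 0.63 in CCN2 KO and −0.93 in WT kidneys for Gpam and 0.67 and −0.59 for Ppp1r10. Of these 9 genes, 1 passed without WT sham kidney 3 or without WT IRI kidney 4, and 2 with the WT sham kidneys of the shared prefix. The number of all genes past this test ran from 7 (without WT IRI kidney 4) to 78 (without CCN2 KO IRI kidney 2) when 1 kidney was left out. For the largest WT increases the difference of responses did not pass, for example 0.11 ± 0.75 (SE) for Krt20 (adjusted p = 0.964), −1.69 ± 0.86 for Havcr1 (adjusted p = 0.365) and −4.06 ± 0.97 for Cxcl1 (adjusted p = 0.0973).

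**Figure D5:**
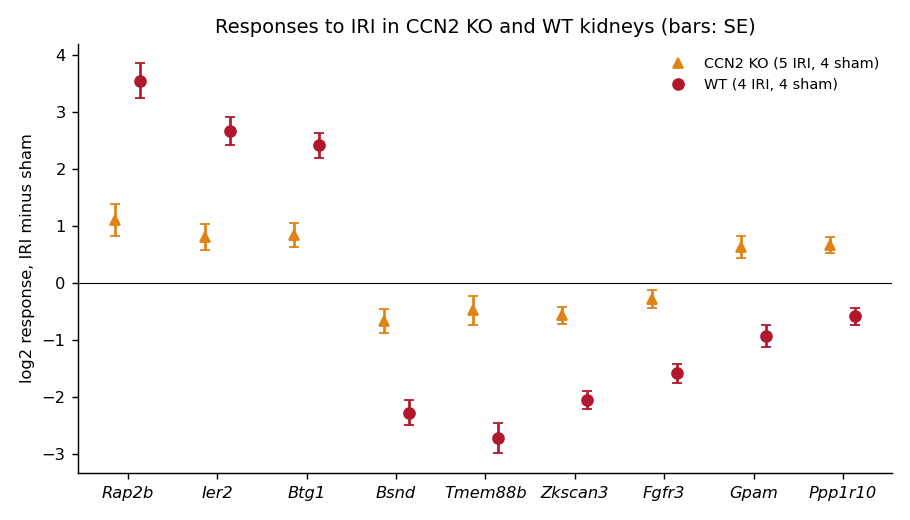
Log2 response to IRI (IRI minus sham, vertical) with limma's SE for 9 genes whose responses differed, the CCN2 KO response (triangles) left of the WT response (circles). Gene by gene, the WT value is farther from 0 than the CCN2 KO value for 8 of the 9, Ppp1r10 being the exception, and Gpam and Ppp1r10 have opposite signs.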

How the data were processed

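Kidney cortex RNA was enriched with poly(A) beads, made into directional libraries and sequenced as single-end reads. Per the labels and the study's methods, the authors aligned reads with STAR 2.4.2a to GRCm38, processed them with Picard and counted them with HTSeq 0.6.1p1, and edgeR gave RPKM; the strand setting and the annotation release are not given in the sources used here. The deposited values are log2 RPKM after quantile normalization, in 38293 rows; 13 columns that match no labelled sample were not used. Without counts, a count test could not be run and depth gives no interval.

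Samples were grouped by their labelled genotype and injury state. limma 3.58.1 (R 4.3.3) fitted 4 group means over all 17 kidneys with an intensity trend for the 12608 genes that exceeded log2 0 in at least 4 kidneys, with Benjamini-Hochberg adjustment over all of them and a threshold of 0.05. The 2-fold test was limma's treat. The script was tested on simulated data first. Gene names and coordinates came from GENCODE M21 (GRCm38) and promoters from RefSeq (GRCm38.p6). Principal components were compared by exact permutation in Python 3.11.15 with scipy 1.17.1.

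Genes named were the 15 largest increases and decreases among genes past the test without overlap of the groups and with a group mean over RPKM 4 (predicted genes and pseudogenes passed over), up to 4 members of each of 47 lists by moderated t and members called against their list, genes the study had measured by other means, the 10 largest differences of responses, the 10 of highest WT sham level and the 10 of largest SD over WT IRI kidneys; genes that met the rule could be left out. Other genes and the family counts were named after their values were seen. The members and lists were chosen with earlier results of these data known. Alternatives were another filter, a pseudocount of 1, centring, the 8 WT kidneys alone, sample weights, no trend, WT sham kidneys of the shared title prefix, and leaving out each kidney; for list counts the last pair was added after the data were seen. A few genes that met the rule are not reported here.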

Additional observations from a re-analysis of the deposited data

Results flagged for a closer look

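In groups of 4 kidneys, Dixon's test set 1 kidney apart from the other 3 in 33 of 490 groups of values examined; chance alone sets about 1 in 20 apart. Values are log2 RPKM, and the range after each is that of the other 3 kidneys of its group. WT IRI kidney 1 was low for Cldn10 4.80 (others 5.00 to 5.02). WT IRI kidney 2 was high for Cxcl2 1.05 (others 0.95 to 0.96), Cfd −1.73 and Il6 −1.21 (others of both all −3.32). WT IRI kidney 3 was high for Aspa 4.21 (others 3.95 to 3.97), Hmgb1 3.83 (others all 3.72) and Sdc4 7.32 (others 7.25 to 7.26), and low for Eif4ebp1 6.77 (others all 6.84), Folr2 −3.32 (others −0.40 to 0.13), Plaur 5.41 (others 5.96 to 6.03) and Trpv5 3.48 (others 3.62 to 3.64). WT IRI kidney 4 was high for Gclc 8.07 (others 7.52 to 7.53) and Sprr2f 4.90 (others 3.47 to 3.66), and low for Ccnd1 3.44 (others 4.16 to 4.26) and Kcnj1 3.57 (others 4.27 to 4.37). WT sham kidney 1 was low for G6pc 7.54 (others 7.96 to 8.04), Slc7a1 −1.21 (others −0.34 to −0.32) and Tmem88b 1.56 (others 2.18 to 2.27). WT sham kidney 2 was high for Avpr2 3.55 (others 2.80 to 2.90), Clcf1 2.05 (others 1.58 to 1.65), Egfr 3.15 (others 2.48 to 2.59), Hspb1 3.31 (others 1.90 to 2.01), Lrp2 7.02 (others 6.58 to 6.63), Rmrp 8.41 (others 7.26 to 7.34) and Slc16a9 5.69 (others 5.48 to 5.51), and low for Krt8 4.88 (others 5.24 to 5.27). WT sham kidney 3 was high for Dhcr7 2.62 (others 2.39 to 2.41), Gsta1 −0.85 (others all −3.32) and Sprr2f 0.38 (others all −3.32), and low for Gnl3 2.68 (others 3.30 to 3.39). WT sham kidney 4 was high for Zyx 4.15 (others 4.08 to 4.09) and for the fat transcripts Adipoq 2.89 and Plin1 1.01 (others of both all −3.32).

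The response to IRI differed between CCN2 KO and WT kidneys, by limma's test of the difference itself, for 9 named genes. CCN2 KO response minus WT response was −2.45 for Rap2b, −1.86 for Ier2, −1.57 for Btg1, 1.61 for Bsnd, 2.25 for Tmem88b, 1.49 for Zkscan3, 1.30 for Fgfr3, 1.56 for Gpam and 1.25 for Ppp1r10 on the log2 scale. WT sham kidney 1, apart for Tmem88b, enters that difference. Without it 3 of the 9 passed the test, and 1 of 9 passed without WT sham kidney 3 or without WT IRI kidney 4.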

How the results depend on the processing

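The counts of genes higher and lower in WT IRI kidneys stayed within 1.5 times of 2458 and 2558 under every alternative run; in total they ran from 3900 (WT sham kidneys of the shared title prefix) to 5737 (sample weights), and from 4285 to 4958 with 1 WT kidney left out. Genes past the 2-fold test numbered 145 with a pseudocount of 1 and 117 with the WT sham kidneys of the shared prefix, against 227; that last fit has fewer samples. The difference of responses, with 23 genes, gave 14 without a filter, 41 with a pseudocount of 1, 231 with sample weights and 9 with the shared prefix, and 7 to 78 with 1 kidney left out; the cause was not tested. It moved by over 1.5 times without WT sham kidney 1 (11) or 3 (9), WT IRI kidney 1 (11), 3 (14) or 4 (7), CCN2 KO sham kidney 2 (39) or 3 (14), and CCN2 KO IRI kidney 2 (78), 3 (15) or 5 (40). The component difference of 90.5 was 89.9 to 93.5 with 1 kidney left out (p = 0.0571) and 91.9 with the shared prefix (p = 0.133), in each case the smallest p that the exact permutation test allows. Of 240 named genes tested, 218 passed; of these 23 lost the call with the shared prefix and 17 in at least 1 fit with a WT kidney left out, and none changed sign in the alternatives run. For the component, sample weights, no trend and the 8 WT kidneys alone do not apply, and the last gives no fit for the difference of responses. No paired analysis was possible because replicate numbers were given in accession order and mark no shared animal, litter or day. Depth is unknown, and values near the floor limit the folds of the lowest genes.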

Other observations

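Gene families grouped by the start of their symbols, a grouping made after the values had been seen and with some members on the lists, differed in direction. Of 53 translation initiation factor genes (Eif) 21 were higher and 3 lower in WT IRI than in WT sham kidneys, the median log2 difference being 0.23, and of 29 ubiquitin-conjugating enzymes (Ube2) 11 were higher and 1 lower (median 0.24), beside a median of −0.05 over all genes. Among 43 ubiquitin-specific proteases (Usp) 13 were higher and 4 lower. Mitochondrial ribosomal proteins of the large subunit (Mrpl) went the other way, with 1 of 46 higher and 16 lower (median −0.22), while 3 of 86 cytosolic ribosomal proteins were higher and 2 lower (median −0.07).

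Solute carriers (Slc), which carry most of the tubule's transport, were higher in 33 and lower in 72 of 257 cases, and cytochrome P450 genes (Cyp) were higher in none and lower in 8 of 39, near the 20.3% of all genes. Of 35 small nucleolar RNAs of the Snord class 5 were higher and 2 lower, beside 19.5% and 20.3% of all genes. Their median was 1.63, counted from the floor where a group was at it.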
